A study of Sus scrofa domesticus with 4 samples.

Results

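Transcripts of POMC and of the enzymes that process its protein, PCSK1, PCSK2 and CPE, were followed in the anterior pituitary of pregnant and cyclic gilts (young female pigs). The probes were those whose RefSeq accession on the array, without its version, belongs to these 4 genes in the NCBI table of pig genes. The 4 genes are among 2459 that could be named on the array. Their probes were 14 of 43603 non-control probes, with 3 for POMC (NM_213858), 3 for PCSK1 (NM_214038), 1 for PCSK2 (NM_001004044) and 7 for CPE (NM_001097439). Only 5578 probes had a gene name in this way.

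The pituitaries came from 8 mature Large White x Polish Landrace gilts of about 110 kg. Of these, 4 gilts had been bred naturally and were sampled in early pregnancy, on days 12 to 13, with conceptuses present, and 4 were sampled at days 12 to 13 of the estrous cycle, judged by ovarian morphology. No drug or genetic change was part of the design. Each of 4 two-colour arrays held RNA of 1 pregnant and 1 cyclic gilt, so that 4 ratios of pregnant over cyclic were obtained per probe. The comparison set early pregnancy against the matching cycle days.

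POMC encodes pro-opiomelanocortin, the precursor of adrenocorticotropin (ACTH), beta-lipotropin, beta-endorphin and the melanocyte-stimulating hormones. In corticotrophs of the anterior lobe the prohormone convertase PC1/3, the product of PCSK1, cuts it mainly to ACTH and beta-lipotropin. In melanotrophs of the intermediate lobe PC2, the product of PCSK2, cuts further to alpha-melanocyte-stimulating hormone and beta-endorphin. Carboxypeptidase E, the product of CPE, then removes the basic residues left at the cut ends, in the secretory granules of endocrine cells.

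Values are log2 ratios of pregnant over cyclic after normalisation within each array, so a negative ratio means a lower level in the pregnant gilt. The labels of the samples put pregnant RNA in Cy3 on arrays 1 and 3 and in Cy5 on arrays 2 and 4, whereas the labelling protocol reads as if it had always been in Cy3. The sample labels were followed, and the deposited value table is turned the same way, since its 4 columns had r of -1, 1, -1 and 1 with log2 of Cy5 over Cy3. Under the other reading the ratios of arrays 2 and 4 change sign, and the fitted ratios of POMC, PCSK1 and PCSK2, by their probe of highest intensity, take the other sign. That of CPE is negative under both readings, but under the other it is -0.16 (limma adjusted p = 0.867), with array 2 positive. Dye and group then coincide on every array, so no dye effect can be fitted. A probe was tested if it was well above background on all 4 arrays in at least 1 group and had unflagged spots on at least 3 arrays.

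In the whole series 21624 probes were tested. The share of probes well above background was 60.7% to 71.8% in pregnant gilts and 47.5% to 71.6% in cyclic gilts, and no spot was saturated. The SD of all ratios was 0.58 on array 3 and 0.28 to 0.33 on arrays 1, 2 and 4, so array 3 stood apart. On array 4 an area holding 14.6% of the spots was dim. Hormone genes of the anterior lobe were measured well above background, among them PRL, GH1, LHB, FSHB and TSHB, but the TSHB ratio ran from -4.85 on array 2 to 6.30 on array 3. Of 6 posterior lobe markers, 2 were measured on every array, OXT and AQP4. Their summed level overlapped between the groups, at 5016 to 8106 intensity units in pregnant and 5704 to 8319 in cyclic gilts. This sum is mostly OXT, at 12.21 to 12.97 log2 units, against 8.02 to 9.26 for AQP4, whose array 4 spot was in the dim area. MBP, left out of the sum for a flagged spot, had fitted ratios of -0.63 to -0.20 over 8 tested probes. Of the intermediate lobe markers PAX7, DRD2, OACYL and PCSK2, only PCSK2 had a named probe. Fewer cells of a type and less RNA per cell cannot be told apart in these whole-gland samples.

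All 14 probes of the 4 genes were well above background in both dyes on every array, by the flag of the scan software. Of their 56 values, 50 were usable and 6, all of CPE, had an outlier flag of the scan software. This left 12 probes to test and 2 CPE probes to describe. None of the 12 tested probes had a limma adjusted p under 0.05, and this was so for 0 of the 21624 probes tested (0%), where the smallest adjusted p was 0.0761. Without adjustment, 3903 probes (18%) had a limma p under 0.05, and 1647 (7.62%) had such a p and a lower level in pregnant gilts. A separate-channel fit of the same gilts called 1047 of 19877 probes at an adjusted p under 0.05 (5.27%), and 0 of the 10 probes of POMC, PCSK1, PCSK2 and CPE that it held.

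**Figure D1:**
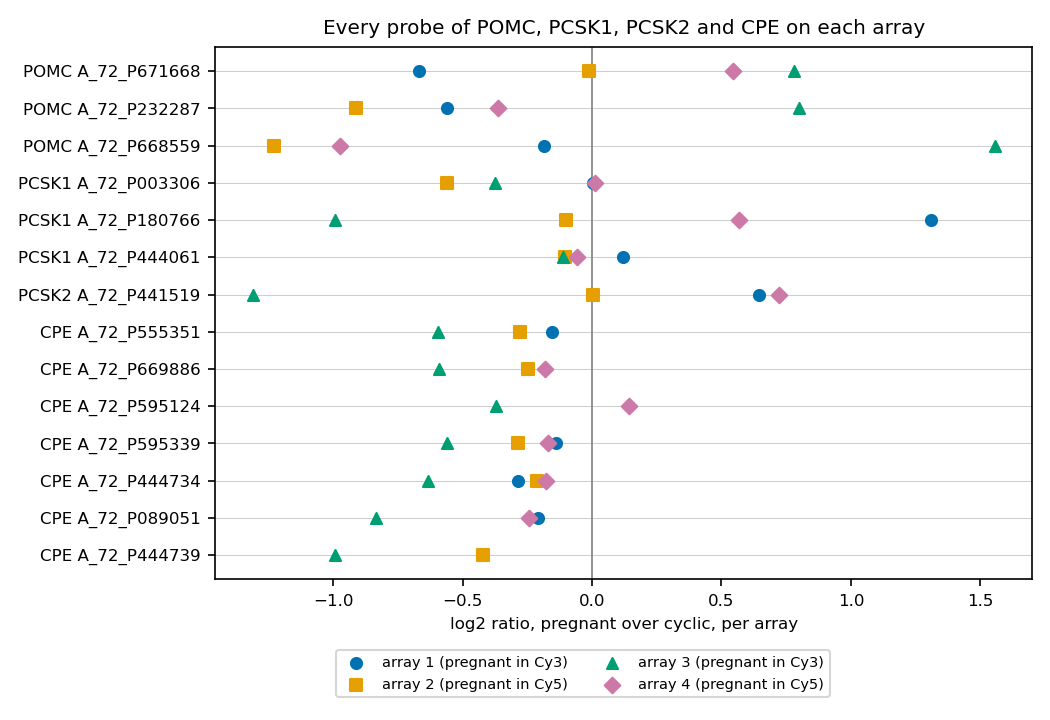
Log2 ratio of pregnant over cyclic (x axis) for each of the 14 probes of POMC, PCSK1, PCSK2 and CPE (rows), with 1 symbol per array and the dye of pregnant RNA in the legend. POMC, PCSK1 and PCSK2 have points on both sides of 0, while 21 of the 22 usable CPE points lie below 0, and array 3 holds the outermost point of most rows.

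Levels of the prohormone transcript did not separate pregnant from cyclic gilts. The POMC probe with the highest mean intensity, A_72_P671668, had log2 ratios of -0.67, -0.01, 0.78 and 0.55 on arrays 1 to 4. In level this was a normalised log2 intensity of 17.18, 17.38, 17.82 and 17.52 in the pregnant gilts of arrays 1 to 4, against 17.85, 17.40, 17.04 and 16.98 in the cyclic gilts. The groups overlapped fully, since the highest gilt of all was the cyclic one of array 1 and the next the pregnant one of array 3. The fitted ratio was 0.16 with an SD of 0.64 over the 4 arrays (95% interval -0.52 to 0.84; limma adjusted p = 0.774). The estimate corresponds to 1.12-fold, and its interval of 0.699-fold to 1.79-fold leaves room for a higher or a lower level in pregnant gilts.

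The other POMC probes did not follow this order. A_72_P232287 had ratios of -0.56, -0.91, 0.80 and -0.36, and A_72_P668559 had -0.19, -1.23, 1.56 and -0.97. On both probes the pregnant gilt was lower on arrays 1, 2 and 4 and higher on array 3. The fitted ratios were -0.26 ± 0.74 and -0.21 ± 1.26 (SD, n = 4), with intervals of -0.90 to 0.38 and -0.97 to 0.55 (limma adjusted p = 0.607 and adjusted p = 0.738).

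Over its 12 values POMC was thus positive in 4 and negative in 8, and the sign of the gene depended on the probe. The 3 probes lay 0.48, 1.21, 0.78 and 1.52 log2 units apart on arrays 1 to 4. On array 4 they even disagreed in sign. Over the 8 gilts the levels of A_72_P232287 and A_72_P668559 had a Pearson r of 0.92, and those of A_72_P671668 had r of 0.14 with each of them. These correlations are descriptions over gilts that share arrays and dyes in pairs. All 3 probes carry the same accession, and the files used here do not give where on the transcript each lies.

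The POMC probes also differed in how their ratios split by dye orientation. A_72_P668559 averaged 0.68 on the arrays with pregnant RNA in Cy3 and -1.10 on those with pregnant RNA in Cy5, and A_72_P232287 averaged 0.12 and -0.64. For A_72_P671668 the averages were 0.06 and 0.27, closer together. The first of these splits is fitted as a dye effect of 0.89, but the 2 orientations also hold different gilts, so dye and gilt cannot be told apart. The spot of A_72_P671668 was at 23.3% to 62.2% of scanner saturation in Cy5 and at 7.35% to 23.5% in Cy3, so the scanner did not cap its ratio. Only 5 non-control probes were brighter than A_72_P671668. Its levels spanned 0.87 log2 units over the gilts, against 1.80 for A_72_P232287 and 2.29 for A_72_P668559. Whether the ratio of so bright a probe was compressed was not tested.

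The spread of POMC between pairs of gilts was wide for this array. The SD over the arrays of A_72_P671668 was exceeded by 4.74% of tested probes on 4 arrays, that of A_72_P232287 by 2.70% and that of A_72_P668559 by 0.181%. The median SD of those probes was 0.22. Without array 3 the fitted ratio of A_72_P671668 was -0.20 (limma adjusted p = 0.501), and without array 1 it was 0.52 (adjusted p = 0.0632). The direction of POMC therefore rested on single pairs of gilts. Array 3, where all 3 POMC probes were highest, was also the array where TSHB had its ratio of 6.30 and GH1 one of -2.39, and the part of these cell types in the POMC ratios was not tested.

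**Figure D2:**
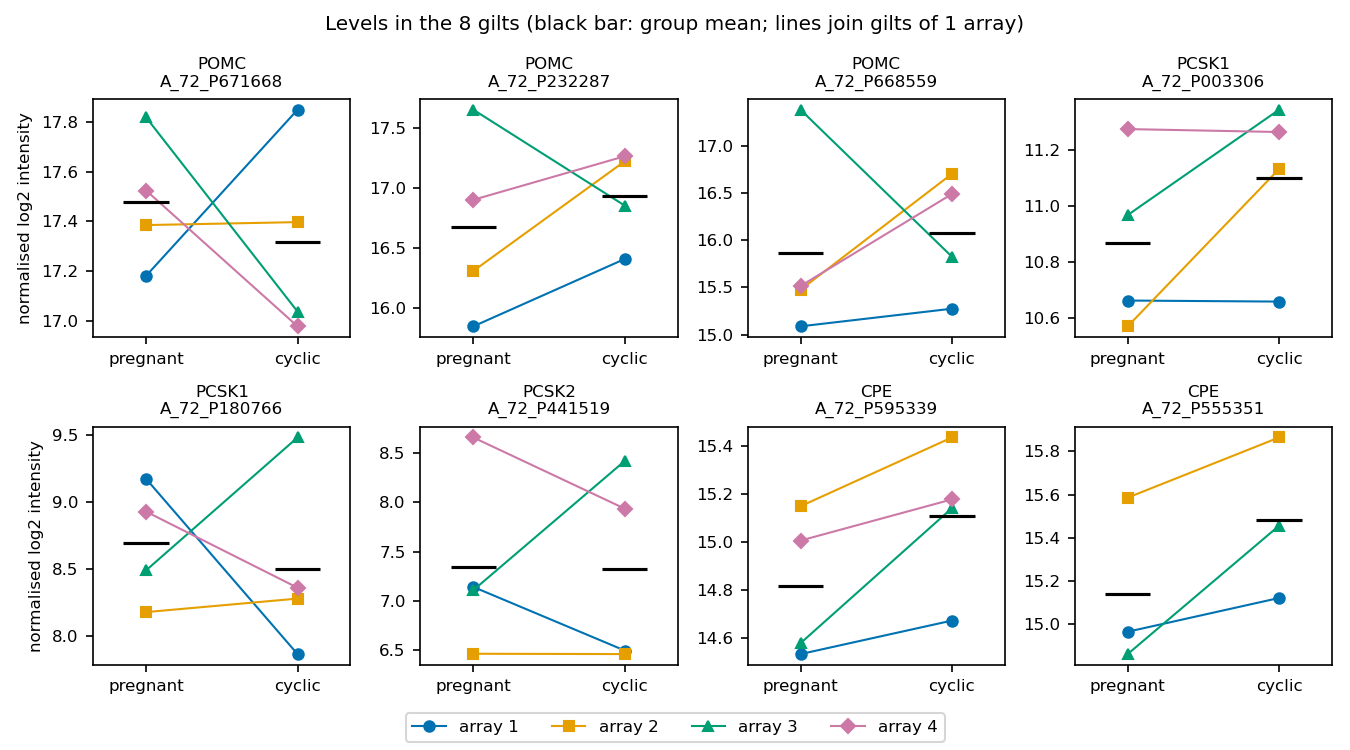
Normalised log2 intensity (y axis) of 8 probes of POMC, PCSK1, PCSK2 and CPE in the 4 pregnant and 4 cyclic gilts, with a line joining the gilts of 1 array and a black bar at the group mean. The lines cross for POMC, PCSK1 and PCSK2, and all run upward from pregnant to cyclic for the CPE probes A_72_P595339 and A_72_P555351, although the CPE ranges of the groups overlap.

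PCSK1, which makes the first cuts in POMC, had no common direction either. Its probe with the highest mean intensity, A_72_P003306, had ratios of 0.00, -0.56, -0.37 and 0.01. The levels were 10.66, 10.57, 10.97 and 11.27 log2 units in the pregnant gilts of arrays 1 to 4, against 10.66, 11.13, 11.34 and 11.26 in the cyclic gilts. Pregnant gilts were lower on arrays 2 and 3 and at the level of their cyclic partner on arrays 1 and 4. The fitted ratio was -0.23 ± 0.28 (SD, n = 4; 95% interval -0.58 to 0.12; limma adjusted p = 0.406), 1.17-fold lower in pregnant gilts as an estimate.

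The other PCSK1 probes gave a positive ratio and a ratio near 0. A_72_P180766 had 1.31, -0.10, -0.99 and 0.57, a fitted ratio of 0.20 ± 0.98 (SD, n = 4; interval -0.83 to 1.22; limma adjusted p = 0.823). Only 0.76% of tested probes on 4 arrays had a larger SD. A_72_P444061 had 0.12, -0.10, -0.11 and -0.06, a fitted ratio of -0.04 ± 0.11 with an interval of -0.26 to 0.18 (limma adjusted p = 0.840). This is the narrowest interval among the PCSK1 probes, although its signals of 75 to 162 units in pregnant and 62 to 215 units in cyclic gilts were low. Of 12 PCSK1 values 5 were positive and 7 negative, and on array 1 the probes lay 1.31 apart.

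PCSK2, the convertase of the melanotroph, was measured by 1 probe, A_72_P441519, with ratios of 0.65, 0.00, -1.31 and 0.72. Its median signal before background correction was 75, 61.5, 95 and 355.5 units in the pregnant gilts of arrays 1 to 4, against 78, 40, 363 and 87.5 units in the cyclic gilts. Thus 1 gilt of each group, the pregnant one of array 4 and the cyclic one of array 3, stood well above the others. The local background was 28 to 43 units in pregnant and 33 to 39 units in cyclic gilts, so the signals of the other gilts were low. The ratio of 0.00 on array 2, the array with the lowest signals, does not show equal levels in that pair. The normalised levels averaged 7.34 ± 0.93 in pregnant gilts and 7.33 ± 1.00 in cyclic gilts (SD, n = 4 each).

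The fitted ratio of PCSK2 was 0.01 ± 0.94 (SD, n = 4), with an interval of -0.88 to 0.91 (limma adjusted p = 0.986). An interval this wide does not show equal levels. Leaving out 1 array at a time moved the ratio between -0.47 and 0.50, and with plain background subtraction it was 0.23. In the levels of the 8 gilts PCSK2 had a Pearson r of 0.77 with PCSK1 A_72_P003306 and of 0.71 with PCSK1 A_72_P180766, while those PCSK1 probes had r of 0.44 with each other. PCSK1 A_72_P003306 had r of -0.40 with POMC A_72_P671668 and of 0.66 with POMC A_72_P232287, so the relation of convertase to prohormone over gilts changed sign with the POMC probe.

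The 5 tested CPE probes all had a negative fitted ratio, and none passed the threshold. The probe with the highest mean intensity among those tested, A_72_P555351, had ratios of -0.16, -0.28 and -0.59 on arrays 1 to 3, with the array 4 spot left out for its flag. The levels were 14.97, 15.59 and 14.86 log2 units in the pregnant gilts of arrays 1 to 3, against 15.12, 15.86 and 15.46 in the cyclic gilts. Each pregnant gilt was below the cyclic gilt of its own array, but the ranges of the groups overlapped. The fitted ratio was -0.33 ± 0.23 (SD, n = 3; 95% interval -0.73 to 0.07; limma adjusted p = 0.324), 1.25-fold lower in pregnant gilts as an estimate. On arrays 1 to 3 A_72_P669886 was brighter, at 15.42 to 15.90 in pregnant and 15.83 to 16.14 in cyclic gilts. Its mean includes a dim spot on array 4, at 13.30 and 13.48, where A_72_P555351 has no value. The choice of the probe that stands for CPE thus rests on array 4.

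The 3 CPE probes with all 4 arrays had ratios below 0 on each array. A_72_P595339 had -0.14, -0.29, -0.56 and -0.17. A_72_P669886 had -0.25, -0.25, -0.59 and -0.18, and A_72_P444734 had -0.29, -0.21, -0.63 and -0.18. Among all tested probes with 4 arrays, 11.3% were below 0 on every array. The 3 probes gave fitted ratios of -0.29 ± 0.19, -0.32 ± 0.18 and -0.33 ± 0.21 (SD, n = 4), with a limma unadjusted p of 0.0389, 0.0207 and 0.0183 and an adjusted p of 0.259, 0.238 and 0.238. They are 3 readings of the same transcript in the same RNA and not 3 findings. Set against the 7.62% of all probes that were lower at an unadjusted p under 0.05, 3 of the 5 tested CPE probes were.

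The remaining CPE probes were those with flagged spots. A_72_P089051 had -0.21, -0.84 and -0.24 on arrays 1, 3 and 4, a fitted ratio of -0.38 (limma adjusted p = 0.338). A_72_P444739, not tested, had -0.42 on array 2 and -0.99 on array 3. A_72_P595124, not tested, had -0.37 on array 3 and 0.14 on array 4, the only positive one of 22 usable CPE values. On each array the usable CPE probes lay 0.15 to 0.62 apart. Every CPE probe had its lowest ratio on array 3.

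The normalisation and the dyes limit what the CPE ratios show. Before normalisation the Cy5 signal of A_72_P555351 was above the Cy3 signal on arrays 1 to 3, whichever group it held. Pregnant gilts gave 19669, 100852 and 28173 units and cyclic gilts 76009, 31347 and 66197 units on these arrays. With neither loess nor centring the fitted ratio of CPE was 0.048, but the median of all probes was then 0.16, so that CPE lay 0.11 below it. With median centring in place of loess it was -0.13. With pregnant RNA taken as Cy3 on every array it was -0.16, with the ratio of array 2 turned and no usable spot on array 4.

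The CPE spots on array 4 need the same care. Those of A_72_P669886 and A_72_P444734 lie in the dim area, and their levels there were 13.30 and 12.54 log2 units in the pregnant gilt and 13.48 and 12.72 in the cyclic gilt, against 15.11 to 15.90 in pregnant and 15.70 to 16.14 in cyclic gilts on the other arrays. The ratios of these spots, -0.18 for each probe, were close to the -0.17 of A_72_P595339, which lies outside the area. Without array 1 the limma adjusted p of A_72_P595339, A_72_P669886 and A_72_P444734 was 0.0438, 0.0401 and 0.0368, at fitted ratios of -0.40, -0.40 and -0.41. That fit called 15.5% of all probes, and without array 2, 3 or 4 none of the 3 probes passed.

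**Figure D3:**
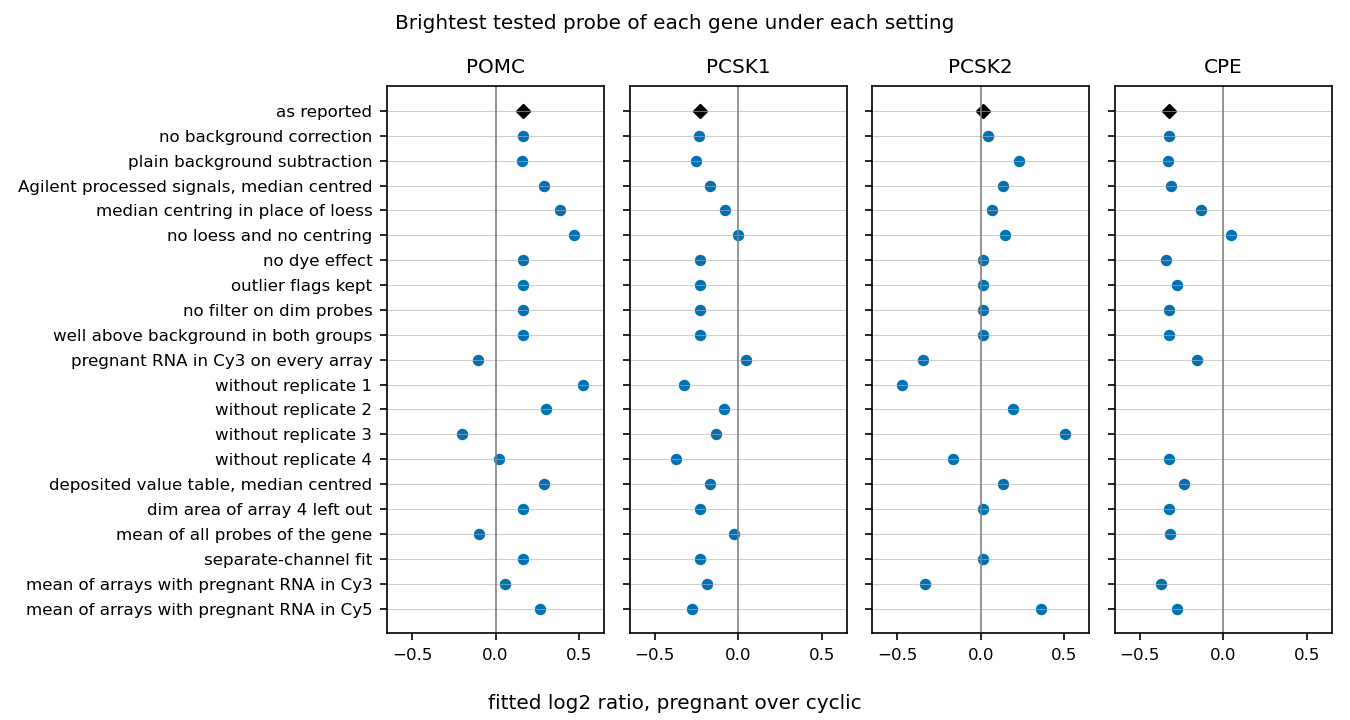
Fitted log2 ratio of pregnant over cyclic (x axis) of the tested probe of highest intensity of POMC, PCSK1, PCSK2 and CPE (panels) as reported (diamond) and under each alternative setting (rows, circles). POMC, PCSK1 and PCSK2 have circles on both sides of 0, while CPE lies above 0 only with neither loess nor centring, and a setting that could not be fitted for a gene has no circle.

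CPE is known from many endocrine cell types, and marker genes of these cells are given beside it. PRL, the lactotroph marker, had ratios of -1.75, 0.01, -1.42 and -0.41, and its level ran from 16.51 to 17.80 in pregnant and from 17.79 to 18.37 in cyclic gilts. GH1, the somatotroph hormone, had -0.94, 1.14, -2.39 and 2.16. The corticotroph receptor CRHR1 had -0.48, -0.27, 0.03 and 0.14, with its array 4 spot in the dim area. PRL was thus negative on 3 arrays, and GH1 and CRHR1 each on 2. Negative on every array measured were FSHB, the gonadotroph hormone subunit, with -3.36, -1.99 and -0.32 on arrays 2 to 4, and the stromal marker SPARC with -0.84, -0.68 and -0.29 on the same arrays. So were the stromal marker ACTA2, with -0.61, -0.39, -0.18 and -0.25 (the last from a spot in the dim area), and the endothelial marker ENG with -0.45, -0.14, -0.81 and -0.01. The myeloid marker CD163 was too, with -0.35, -0.01 and -0.45 on arrays 2 to 4. GNRHR of the gonadotroph and CCL5 of lymphocytes were positive on every array. Among all tested probes with 4 arrays, 11.3% were below 0 and 14.6% above 0 on every array. FSHB, SPARC and CD163 had 3 arrays, for which no such share was taken. These markers were singled out after the values were seen.

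By list, 2 of 4 gonadotroph, 2 of 3 stromal and 1 of 2 endothelial markers measured had a negative fitted ratio, beside 2 of 2 somatotroph markers and 1 of 1 lactotroph marker. So had 2 of 3 myeloid, 1 of 2 lymphocyte and 1 of 2 thyrotroph markers, where the thyrotroph receptor TRHR had a positive fitted ratio of 0.30. The summed level of the markers measured on all arrays overlapped between the groups in each of these lists. It was 4435 to 5938 intensity units in pregnant and 4160 to 6323 in cyclic gilts for 2 stromal markers, ACTA2 and DCN, without SPARC. DCN had a positive fitted ratio of 0.22. For 2 endothelial markers the summed level was 1453 to 2119 in pregnant and 1417 to 2194 in cyclic gilts. For 3 gonadotroph markers, without FSHB, it was 60716 to 135625 in pregnant and 59640 to 146446 in cyclic gilts. For PRL it was 93009 to 227735 in pregnant and 226428 to 338019 in cyclic gilts, an overlap by a narrow margin. The part of these cells in the CPE ratios was not tested. Ranges of summed levels also leave out the pairing of gilts by array.

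**Figure D4:**
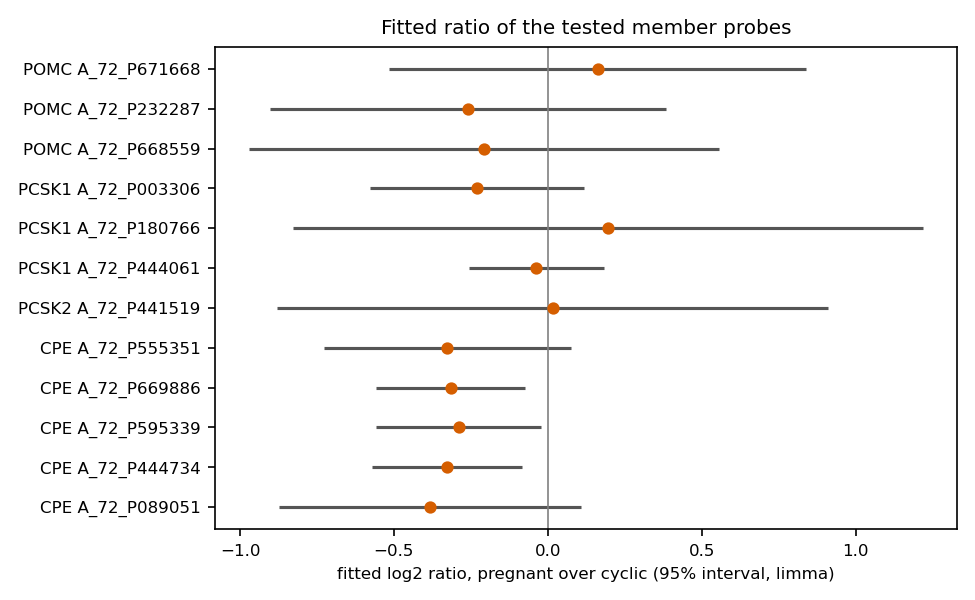
Fitted log2 ratio of pregnant over cyclic (x axis, points) with its 95% interval from limma (lines) for the 12 tested probes of POMC, PCSK1, PCSK2 and CPE (rows). The intervals of 3 CPE probes, A_72_P669886, A_72_P595339 and A_72_P444734, end below 0 and all others span it, and no probe had an adjusted p under 0.05.

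The genes whose levels over the gilts were most like those of each gene were taken by Pearson correlation with its probe of highest intensity, over the 8 gilts and 1489 named genes, or over 6 gilts and 1620 genes for CPE. For POMC these were DPPA5, NEU1, SELP and CYP24A1, with r of 0.789 to 0.699, so no gene was closely like POMC A_72_P671668. For PCSK1 they were SLC35A4, DDR1, LCLAT1 and NQO1 with 0.954 to 0.905. For PCSK2 they were NTN1, PLIN3, RAMP3 and LCP1 with 0.984 to 0.933. For CPE they were UPK1B, HAS3, KIF1BP and RAB2A with 0.995 to 0.977. High values are easily found among so many genes over so few gilts, which share arrays and dyes in pairs, and no p is given.

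Genes around POMC processing were read in 6 lists, in which each gene stands for its tested probe of highest intensity. By limma 0 genes of the 6 lists had an adjusted p under 0.05. Over all 1744 named genes tested, 56.2% had a negative ratio and the median was -0.02.

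Genes that control POMC expression in the corticotroph, from the CRH receptor to cytokine signalling, split into 5 positive and 4 negative of 9 measured, with a median of 0.02. IL6ST, the gp130 subunit through which LIF and interleukin 6 act, had 0.14, 0.31, 0.40 and 0.20, a fitted ratio of 0.27 ± 0.12 (SD, n = 4; limma unadjusted p = 0.0303), and its second probe 0.035. EGFR, the epidermal growth factor receptor, had 0.22 ± 0.20 (SD, n = 4). ANXA1, a mediator of glucocorticoid feedback made by folliculostellate cells, had -0.48 ± 0.54, and PRKAR1A, the regulatory subunit of protein kinase A, -0.28 ± 0.20 (SD, n = 3 each). IL6ST was positive on the 4 arrays, as was EGFR with 0.41, 0.09, 0.37 and 0.01 (limma unadjusted p = 0.0364), and 14.6% of tested probes on 4 arrays were. The 2 higher EGFR ratios are those of arrays 1 and 3, with pregnant RNA in Cy3. The p of EGFR thus rests on a fitted dye effect that cannot be told from gilt. TBX19 and AVPR1B, which also mark the corticotroph, had no named probe.

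Genes of the glucocorticoid response, which reads the feedback of cortisol on POMC, had 2 positive and 3 negative ratios of 5 measured, with a median of -0.03. The glucocorticoid receptor NR3C1 had 0.01 ± 0.29 (SD, n = 4) and the target KLF9 0.01 ± 0.07 (SD, n = 4). The levels of KLF9 were low, at 6.60 to 6.69 log2 units, so its ratio does not show an unchanged target. HSP90AA1, the chaperone of the receptor, had -0.22 ± 0.05, and HSD11B1, which regenerates active glucocorticoid, -0.22 ± 0.44 (SD, n = 3 each). The 5 tested probes of HSP90AA1 disagreed in sign and ran from -0.32 to 0.60. HSD11B2, which inactivates it, had -0.03 ± 0.31 (SD, n = 4). None of the 5 had an unadjusted p under 0.05.

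Other proteases and partners of peptide processing gave 5 positive and 4 negative ratios of 9 measured, with a median of 0.08. CTSB, the lysosomal protease cathepsin B, had -0.72, -0.23 and 0.13 on arrays 1, 2 and 4. Its fitted ratio was -0.38 ± 0.42 (SD, n = 3; limma unadjusted p = 0.0448). Of these arrays only array 1 had pregnant RNA in Cy3, so this p also rests on a dye effect that cannot be told from gilt. The oligopeptidases NLN (neurolysin) and THOP1 (thimet oligopeptidase) had 0.39 ± 0.58 (SD, n = 4) and 0.21 ± 0.21 (SD, n = 3), and ACE, which clips small peptides, had -0.16 ± 0.43 (SD, n = 4). The ratio of NLN rested on array 3, at 1.25, against 0.01 to 0.16 on the others. The PC2 chaperone gene SCG5 had no tested probe, and the PC1/3 inhibitor PCSK1N, the amidating enzyme PAM and the convertase FURIN had no named probe.

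Cargo and sorting genes of the secretory granule had a negative fitted ratio for 6 of 6 measured, with a median of -0.13, where 56.2% of named genes tested had one. None of the 6 was negative on all 4 arrays. RAB3A, a GTPase of granule release, had -0.68, -0.05, -0.79 and 0.26, a fitted ratio of -0.32 ± 0.50 (SD, n = 4; limma unadjusted p = 0.0187). The 2 low ratios are those of arrays 1 and 3, with pregnant RNA in Cy3. The p of RAB3A thus rests on a fitted dye effect, and dye and gilt cannot be told apart. RAB27A, which docks granules, had -0.35 ± 0.38. The granins CHGB and SCG2, which pack the granule core, had -0.11 ± 0.52 and -0.15 ± 0.42 (SD, n = 4 for each of the 3). All 15 tested probes of CHGB had a negative fitted ratio, from -0.64 to -0.06, where 46.9% of all tested probes did. They read 1 transcript in the same RNA and are not separate findings. The CHGB probe of highest intensity had -0.43, 0.05, -0.61 and 0.54 on arrays 1 to 4, so its arrays disagreed in sign.

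Receptors of POMC peptides and their antagonists lay near 0. MC1R had -0.03 ± 0.14, MC3R 0.03 ± 0.18, the opioid receptor OPRM1 0.03 ± 0.16 and the melanocortin antagonist AGRP -0.01 ± 0.06 (SD, n = 4 each). All 4 of the measured genes had ratios between -0.03 and 0.03. Their normalised levels were low, at 6.42 to 6.74 log2 units over the gilts for AGRP and 6.51 to 6.88 for OPRM1. MC3R ran from 6.81 to 7.62 and MC1R from 7.06 to 8.21. For comparison, PCSK2 had a level of 6.46 at signals of 61.5 and 40 units on array 2. Ratios near 0 at such levels do not show unchanged receptors.

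Other prohormones and neuropeptides, many of which need the same convertases and CPE, had 3 positive and 10 negative ratios of 13 measured, with a median of -0.05. PRL, which needs no convertase, had -0.89 ± 0.83 (SD, n = 4). CARTPT, the precursor of CART peptides, had -1.68, -0.09 and -2.36 on arrays 2 to 4 and a fitted ratio of -1.06 ± 1.17 (SD, n = 3). Its levels were 6.81 to 8.24 log2 units in pregnant and 8.33 to 10.33 in cyclic gilts, so the lowest pregnant level was low. Of its arrays only array 3 had pregnant RNA in Cy3. CCK had -0.29 ± 0.26 and IGF2 -0.18 ± 0.37 (SD, n = 4 each). The limma unadjusted p was 0.000655 for PRL, 0.00512 for CARTPT and 0.0179 for CCK, and these were the 3 of 13 genes under 0.05, in a fit where 18% of all tested probes were. Each p rests on the fit with a dye effect, which cannot be told from gilt.

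**Figure D5:**
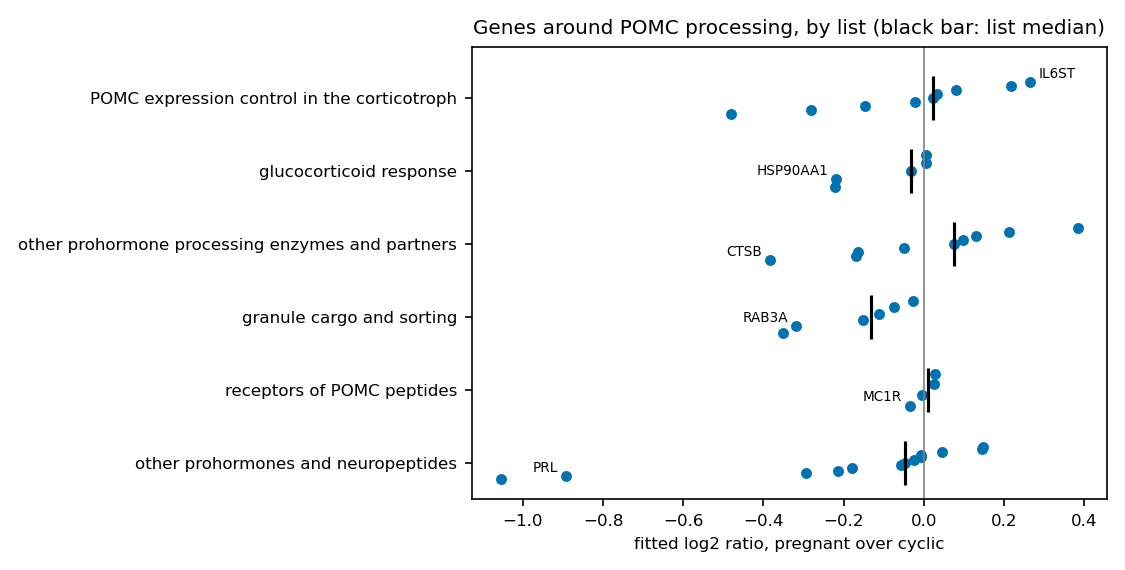
Fitted log2 ratio of pregnant over cyclic (x axis) of each measured gene in 6 lists around POMC processing (rows, points spread vertically for legibility), with a black bar at the list median and the gene of smallest p named. The 6 granule genes lie below 0, the receptors of POMC peptides lie between -0.03 and 0.03, and the other lists have points on both sides of 0.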

How the data were processed

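Anterior pituitary RNA with an integrity number of at least 8 was labelled, and each of 4 Agilent arrays of design 026440 received 825 ng of cRNA in each dye, on 1 slide, read in 1 scan, per the labels and file headers. The deposited files hold median spot and background intensity in Cy3 and Cy5, outlier flags, processed signals and a log10 Cy5 to Cy3 ratio, made with Agilent Feature Extraction 10.7.3.1 per the file headers and named in the submitters' processing notes. The authors' deposited value table holds log2 ratios with column medians of 0.07, -0.08, -0.18 and -0.17, so it is not centred, and its software is not given in the sources read.

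From the median signals (the files used here hold no mean signals, which the plan had named) the normexp method with offset 50 corrected the background. Loess, with control spots at weight 0, normalised the ratios of each array, flagged spots were left out, spots of a probe were averaged, and ratios were turned to pregnant over cyclic. limma 3.58.1 in R 4.3.3 fitted the group ratio and a dye effect per probe (lmFit, eBayes), with Benjamini-Hochberg adjustment over all 21624 tested probes, 19877 on 4 arrays and 1747 on 3. Levels are loess and Aquantile normalised log2 intensities. Values after a plus-minus sign are the SD over arrays or gilts, and the value before it is the fitted ratio or the mean level. The limma p rests on the spread left after the dye effect and does not measure this SD. On 3 arrays the fitted ratio is not the plain mean. Names came from the NCBI table of Sscrofa11.1 genes.

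All probes of the 4 genes are described, and of each list the 4 genes with the smallest unadjusted p are named, with NR3C1, the marker genes and the genes without a probe added after the values were seen. The genes and lists were chosen with earlier results of these data known. The fit was tested on simulated data. The number of arrays limits the precision. The alternatives were other background corrections, normalisations, signals, filters, dye directions, models and left-out arrays.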

Additional observations from a re-analysis of the deposited data

Results flagged for a closer look

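Among 30 sets of 4 values of the POMC, PCSK1, PCSK2 and CPE probes (ratios, levels in pregnant gilts and levels in cyclic gilts), 4 had their lowest or highest value set apart, as judged by Dixon's ratio of gap to range, where chance gives about 1 in 20, or 1.5 sets. The levels of PCSK1 A_72_P444061 in pregnant gilts had a ratio of 0.875, with 7.69 on array 3 against 7.08 to 7.15 on the others. The cyclic gilt of array 3 was also the highest of its group on this probe, at 7.80.

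The ratios of CPE A_72_P669886 had a Dixon ratio of 0.834, with -0.59 on array 3 against -0.25 to -0.18 on the others. Its levels in cyclic gilts gave 0.884, and those of CPE A_72_P444734 gave 0.877, in both with the gilt of array 4 far below the others. These 2 spots lie in the dim area of array 4, where the surrounding spots were lower than on the other arrays by a log2 shift of -1.90 and -2.77.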

How the results depend on the processing

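The count of 0 probes past the threshold was 0 in 9 of 17 alternatives and moved in 8. It was 1 with no background correction, 1 with Agilent processed signals, 1 with the deposited table, 2 without the dye effect, 72 with neither loess nor centring and 1047 in the separate-channel fit, and it ran from 0 to 3391 on leaving out each array, with 3391 without array 1 and 4 without array 3. Of the probes with an unadjusted p under 0.05, those higher in pregnant gilts made up 57.8% as reported, 71.1% with processed signals, 70.1% with the deposited table, 82.1% with median centring, 95.1% with neither loess nor centring and 40.2% with pregnant RNA in Cy3 on every array. Taking pregnant RNA as Cy3 on every array gave -0.11 for POMC, 0.045 for PCSK1 and -0.35 for PCSK2, each of the other sign than reported. POMC was -0.10 as the mean of all its probes, an alternative chosen after seeing the data, and ran from -0.20 (without array 3) to 0.52 on leaving out each array. PCSK1 ran from -0.37 to -0.09 and PCSK2 from -0.47 (without array 1) to 0.50, with -0.16 without array 4 and a mean of -0.33 over the arrays with pregnant RNA in Cy3. CPE was 0.048 with neither loess nor centring, where the median of all probes was 0.16, and the cause was not tested. In the other 15 alternatives of CPE the ratio was negative, but not all of these could move it. With either change of filter, without array 4 or without its dim area it stayed at the reported -0.33, since its array 4 spot was already left out. No alternative gave POMC, PCSK1, PCSK2 or CPE, by the probe that stands for the gene, an adjusted p under 0.05. The lowest was 0.0632 for POMC and 0.253 for CPE. The CPE probe A_72_P555351 has 3 arrays, so leaving out a further array or the separate-channel fit gave no value. Without array 1 the CPE probes A_72_P595339, A_72_P669886 and A_72_P444734 had a limma adjusted p of 0.0438, 0.0401 and 0.0368, in a fit that called 15.5% of all probes. The fit on ratios within an array already pairs the 2 gilts of each array. Gilts of 4 pairs and the disagreement of probes limit every direction given here.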
